A study of Mus musculus with 2 samples.

Results

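Cajal-Retzius cells are early-born, Reelin-secreting neurons of the marginal zone, the outermost layer of the developing cerebral cortex. They were taken here from 2 single-cell transcriptome libraries of mouse forebrain at E18.5, 1 labelled wild type and 1 labelled Cyfip2 knockout, and each library was made from a pool of 2 forebrains. The protein encoded by Cyfip2 belongs to the WAVE complex, an activator of branched actin assembly, and the labels give no other allele, agent, strain or sex for either group. Members were chosen by their raw counts of 7 genes: a member held at least 20 UMIs (unique molecular identifiers, 1 per captured transcript) of Reln, at least 2 UMIs of Trp73, Ndnf and Nhlh2 together, and at most 1 UMI of the interneuron genes Dlx1, Dlx2 and Dlx6os1 together. The rule found 97 of 21941 called cells, 40 of 9086 in the wild-type library and 57 of 12855 in the knockout-labelled library. With 1 library per group no comparison between genotypes can be tested, and every interval given is an exact 95% interval that covers counting error only.

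Reelin, the glycoprotein encoded by Reln, binds the receptors Apoer2 (Lrp8) and Vldlr on migrating cortical neurons, which respond through the adaptor Dab1 and settle in their layers. Cajal-Retzius cells arise at the edges of the cortical sheet, including the cortical hem, the septum and the border with the subpallium, spread tangentially under the meninges, and most of them die soon after birth. Trp73, a relative of the p53 gene, is needed for the hem-derived cells, and the LIM-homeobox factors Lhx1 and Lhx5 are long-standing markers of the type.

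The sequences before the starts of 3 of the genes the rule read, Reln, Trp73 and Nhlh2, are shown first, since these transcripts define the cells; for Ndnf none is shown. The windows are the 250 bases before each RefSeq start on GRCm38.p6 (the assembly also called mm10), all on the coding strand: Reln chr5:22344706-22344955 on the minus strand, Trp73 at 2 starts on the minus strand, chr4:154097174-154097423 and chr4:154139876-154140125, and Nhlh2 chr3:102009895-102010144 on the plus strand. Capitals mark the E-box CAGCTG, a core sequence bound by basic helix-loop-helix factors such as Nhlh2, searched on both strands.

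Reln promoter: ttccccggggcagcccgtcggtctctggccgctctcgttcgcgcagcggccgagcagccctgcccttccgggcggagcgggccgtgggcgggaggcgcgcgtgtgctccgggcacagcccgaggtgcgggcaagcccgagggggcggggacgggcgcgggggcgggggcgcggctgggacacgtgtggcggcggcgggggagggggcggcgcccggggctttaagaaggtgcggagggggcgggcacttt

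Trp73 downstream start: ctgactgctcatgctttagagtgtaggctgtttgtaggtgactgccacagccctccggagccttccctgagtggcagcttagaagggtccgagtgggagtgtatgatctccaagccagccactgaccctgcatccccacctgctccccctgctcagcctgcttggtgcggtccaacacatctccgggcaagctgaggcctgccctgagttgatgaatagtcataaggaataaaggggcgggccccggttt

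Trp73 upstream start: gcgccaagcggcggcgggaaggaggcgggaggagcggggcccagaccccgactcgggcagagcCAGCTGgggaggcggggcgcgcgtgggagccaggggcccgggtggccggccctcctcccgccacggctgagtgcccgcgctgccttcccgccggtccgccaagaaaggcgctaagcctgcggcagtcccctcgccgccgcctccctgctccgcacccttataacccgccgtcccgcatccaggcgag

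Nhlh2 promoter: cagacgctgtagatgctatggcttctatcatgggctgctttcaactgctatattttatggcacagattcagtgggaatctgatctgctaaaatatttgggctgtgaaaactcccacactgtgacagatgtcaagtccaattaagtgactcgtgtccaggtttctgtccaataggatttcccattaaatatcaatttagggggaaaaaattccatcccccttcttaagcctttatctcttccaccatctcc

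The Reln window held 37 CG dinucleotides and was 80.0% G or C, and the upstream Trp73 window held 31. The downstream Trp73 window held 6 CG dinucleotides and the Nhlh2 window 2. The median was 6 over all 32851 promoter windows and 17 over the windows of genes measured in these cells. The CAGCTG motif occurred once, in the upstream Trp73 window; tags at the 3' end of transcripts do not tell which Trp73 start was used. Over the 307 windows that matched 222 of the 299 genes led by Cajal-Retzius cells (at least 4-fold above all other called cells in both libraries), 14.7% held CAGCTG, against 13% of all windows and 11% of the windows of genes measured in these cells. For the homeodomain core TAATTA, searched the same way, the shares were 2.61% of the windows of the leading genes, 4.84% of all windows and 2.16% of those of measured genes. The 25 leading genes with the largest folds matched 20 windows, of which 1 (5%) held CAGCTG and 0 held TAATTA. No excess of either motif was tested.

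The members made up 0.440% of called cells in the wild-type library (0.315% to 0.599%) and 0.443% in the knockout-labelled library (0.336% to 0.574%). The ratio of the shares, knockout-labelled over wild-type, was 1.01 with an interval of 0.661 to 1.55, so a difference in abundance beyond these bounds was not detected and a smaller one cannot be seen at this number of cells. Members were deeper than other cells, with a median of 19681 UMIs against 9957 in the wild-type library and 18803 against 8252 in the knockout-labelled library; the rule asks for raw Reln UMIs and so favours deep cells. The libraries held 123978461 and 150828048 UMIs in all, and 32 called barcodes occurred in both libraries, none of them a member.

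Reln itself, whose level chose the cells and is given as a description, ranged from 20 to 376 UMIs per cell with a median of 111.5 in the wild-type library, and had a median of 88 and a maximum of 290 UMIs in the knockout-labelled library. Summed over members it stood at 5215 CPM (UMIs of a gene scaled to the sum over the same cells, as is usual for sequencing counts) in the wild-type library and 4769 CPM in the other, against 13.3 and 20.5 CPM in all other called cells. Trp73 had at least 1 UMI in 39 of 40 and 55 of 57 members, Nhlh2, a helix-loop-helix factor, in 40 and 56, and Ndnf, a secreted neurotrophic factor, in 36 and 57. Trp73 and Nhlh2 were found in nearly every member of both libraries, while all 4 members without an Ndnf UMI lay in the wild-type library. The rule read these genes as well, so their counts are likewise a description.

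The edge of the rule was thinly filled. Inside it, 3 wild-type and 2 knockout-labelled members had 20 to 29 Reln UMIs, and no cell with at least 20 Reln UMIs and at most 1 Dlx UMI missed the condition on Trp73, Ndnf and Nhlh2. Just outside it, 7 and 9 cells met the other conditions with 10 to 19 Reln UMIs. A further 2 and 7 cells met the conditions on Reln and on the other markers but held 2 or more Dlx UMIs.

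**Figure D1:**
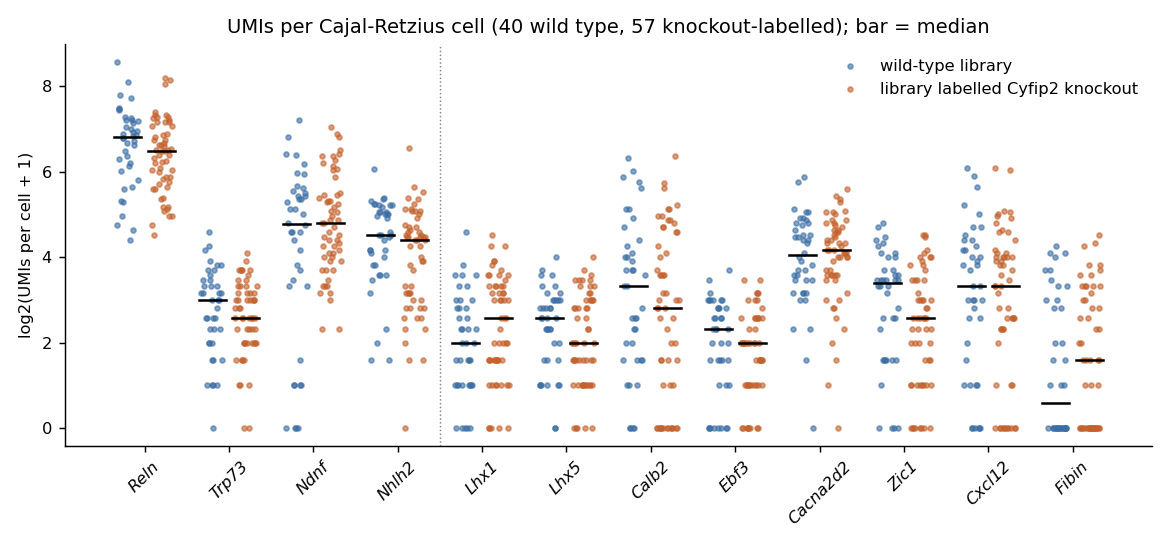
UMIs per cell on a log2(UMIs + 1) axis for 12 genes in the 40 members of the wild-type library (blue) and the 57 of the knockout-labelled library (orange); each point is a cell and each bar a median. The 4 genes left of the dotted line were read by the rule; for Ndnf, 9 wild-type cells sit at 0 to 2 UMIs, below every knockout-labelled cell.

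Levels of genes that the rule did not read were then compared between members and other called cells. A gene was called leading if its CPM over the summed members was at least 4-fold that of all other called cells in both libraries, among genes with at least 50 UMIs in the members of both libraries together. Of 6501 such genes, 299 were leading, which is 4.6%. Of the 18 listed Cajal-Retzius markers not used by the rule, 17 were measured and 13 were leading. That list was written with earlier results of these data known, so it is not independent support for the label. The rule read Ndnf, Trp73, Reln and Nhlh2, so their folds are set by the selection and are listed as a description. Among the 25 first by the lower of the library folds were Ndnf, P2rx5, Trp73, Reln, Ripk4, Fibin, Gdf5, Samd3, Mrap2, Lhx1os, Car10, Lhx5, Lhx1, Ankrd35, Nhlh2, Barhl2, Cd274, Ramp1, Shisal2b, Ache, Fibcd1, Mab21l1, Ebf3 and Rgs4.

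Among transcription factors, Lhx5 had 231 CPM in wild-type members and 218 CPM in knockout-labelled members, 301-fold and 119-fold the level of other cells. Lhx1 had 201 and 294 CPM, and its neighbouring transcript Lhx1os 134 and 143 CPM; whether the counting used strand is not given, so reads of this pair may be shared. Barhl2, a homeobox factor, had 96.6 and 72.1 CPM, and Ebf3, of the Ebf family, 173 and 153 CPM. Each of these genes stood at most at 2.52 CPM in the other cells of either library. Nr2f2 (COUP-TFII), at 841 and 666 CPM, was 46.1-fold and 30.8-fold above other cells, and Emx2, a dorsal telencephalic factor, was 15.1-fold and 17.9-fold above them. Zic2 and Zic5, zinc-finger factors of the dorsal midline, were 21.7-fold and 17.1-fold above other cells in the wild-type library and 13.7-fold and 10.3-fold above in the knockout-labelled library.

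The secreted and surface genes formed a second set. Gdf5, a ligand of the bone morphogenetic protein family, had 152 and 144 CPM. Cxcl12 and its receptor Cxcr4, which position Cajal-Retzius cells under the meninges, had 628 and 616 CPM and 233 and 185 CPM. Unc5b, a netrin receptor, had 100 and 146 CPM, and Plxnd1, a semaphorin receptor, 200 and 164 CPM. Calb2 (calretinin), a calcium-binding protein used as a histological marker, had 711 and 622 CPM but was absent from 4 wild-type and 14 knockout-labelled members.

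In excitability genes, the calcium-channel auxiliary subunit Cacna2d2 had 825 and 894 CPM, 53.8-fold and 38.1-fold above other cells. P2rx5, an ATP-gated channel, was low in level, with 36 and 46 UMIs in all, yet 442-fold and 307-fold above other cells. The vesicular glutamate transporter Slc17a6 had 227 and 151 CPM, and Slc17a7, its partner in mature cortex, 1 UMI and none. Gad1 and Gad2, the enzymes of GABA synthesis, had at most 4 UMIs in the members of either library. Among peptide genes, Pnoc, the nociceptin precursor, had 157 and 115 CPM, and Penk, the enkephalin precursor, 58.4 and 45.2 CPM. Pnoc had a UMI in 22 and 19 members and Penk in 12 and 9.

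Lists of other cell types were checked in the same sums. Of 6 subplate markers 2 were measured, Tmem163 and Nxph4, and both were leading. The subplate list's level was 485 and 398 CPM in members against 27.1 and 21.8 CPM in other cells. The 1 measured gene of the thalamus, habenula or zona limitans list, Lhx9, was leading, as was Cspg4, the 1 measured gene of the oligodendrocyte list. None of 14 GABAergic markers reached 50 UMIs, and the list's level was 47.2 and 31.3 CPM in members against 763 and 993 CPM in other cells. Of 10 cortical excitatory markers 6 were measured, and 5 of them were at least 4-fold lower than in other cells in both libraries; Tbr1, which Cajal-Retzius cells share with deep-layer neurons, was 3.1-fold and 3.3-fold higher. Ttr, a choroid plexus transcript, had 21 and 68 UMIs in members, 23.6 and 59.1 CPM against 1396 and 2058 CPM in other cells, and its part in the library differences was not tested. Of 6 markers of olfactory mitral or tufted cells, Tbx21, Cdhr1 and Lbhd2 had no UMI in any member, Doc2g had 10 and 6 UMIs and Slc17a8 6 and 2. Eomes, a T-box factor also of cortical intermediate progenitors, was the 1 measured, with 25 UMIs in 6 wild-type members and 38 in 5 knockout-labelled members, 28.1 and 33 CPM against 88.9 and 67.1 CPM in other cells; 1 cell held 16 of the 25 and 1 mixed cell held 33 of the 38.

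**Figure D2:**
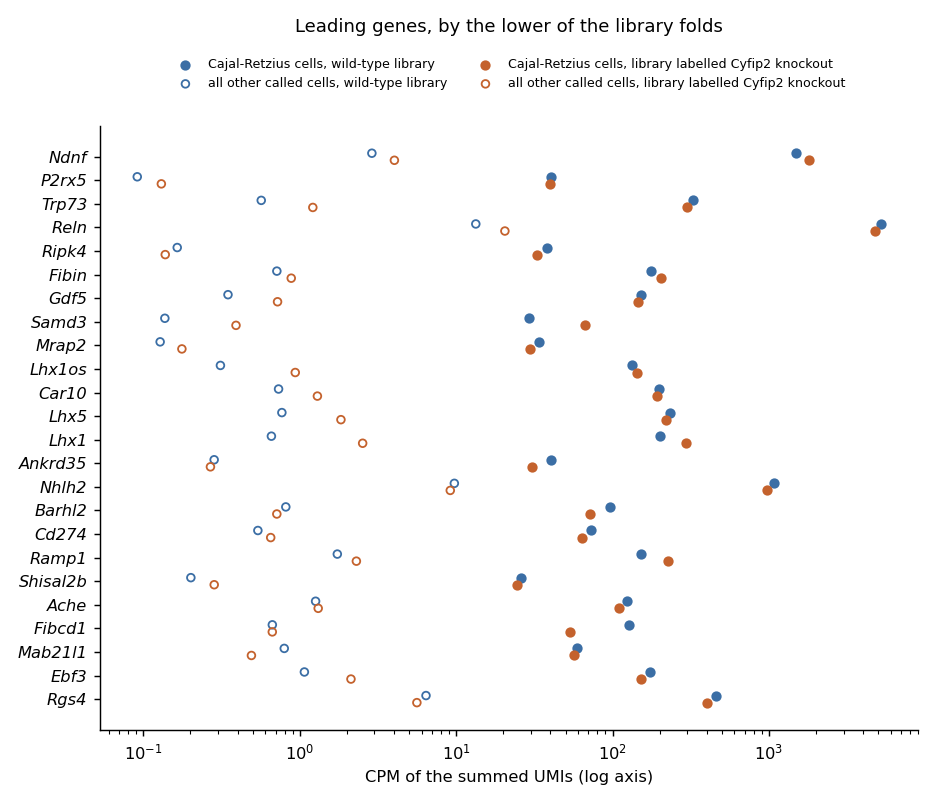
CPM of the summed UMIs on a log axis for 24 of the 25 first leading genes, in members (filled) and in all other called cells (open), by library. Every filled point lies at least 71.9-fold to the right of the open point of its library, and Reln and Ndnf have the highest levels.

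Some droplets held RNA of another cell type as well. A member was called mixed if at least 0.2% of its UMIs came from 1 marker list of another type, a cut chosen after the values were seen. The subplate list and the thalamus, habenula or zona limitans list were not used for this. There were 3 mixed members in the wild-type library, 2 with progenitor genes (708 and 259 UMIs of that list) and 1 with excitatory genes (121 UMIs). The knockout-labelled library had 6, of which 1 carried 759 UMIs of the microglia or macrophage list, 1 carried 132 progenitor UMIs, 1 carried 103 red blood cell UMIs, and 3 carried 50 to 93 excitatory UMIs. Scrublet, a doublet caller run at 0.8% per 1000 called cells, marked 9 members in each library, among them 2 of the 3 and 6 of the 6 mixed ones. The progenitor list stood at 1171 CPM over all wild-type members and at 93 CPM without the mixed ones, and the macrophage list at 669 and 7.12 CPM in the knockout-labelled library. Results that follow are given for all members and for the 37 and 51 left without the mixed ones.

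The members were not uniform. Among 2332 genes with enough UMIs, those with the largest spread between cells of both libraries, mixed members left out, were Rspo3, Igfbpl1, Epha5, Snhg11, Pnoc, Meg3, Cdkn1a, Nxph4, Cspp1 and Angpt1. Rspo3, a secreted Wnt potentiator, ranged from 0 to 1152 CPM per cell in the wild-type library with a median of 50.8 CPM, and from 0 to 838 CPM with a median of 0 in the other. In the wild-type library Lhx5 varied little beyond counting noise, with a variance of 1.07 times the mean expected from counting. In the knockout-labelled library its variance was 2.08 times that mean.

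A division was seen in Ndnf, which the rule read together with Trp73 and Nhlh2, so its counts are given as a description. A member with no Ndnf UMI could enter only through Trp73 or Nhlh2. In the wild-type library 9 of 40 members had 0 to 2 Ndnf UMIs and the next had 9; in the knockout-labelled library the lowest member had 4 and the median was 27.0. That is 22.5% (10.8% to 38.5%) against 0 of 57, which allows a share of up to 5.26% by a floor of 3 cells and 6.27% by the exact interval. The Ndnf-poor cells were shallower, with a median of 12540 UMIs against 21272 in the other wild-type members, had a median of 39.0 Reln UMIs against 122.0, and 6 of the 9 were marked as doublets. The Reln threshold bears on this contrast: among cells just outside it, with 10 to 19 Reln UMIs, 4 of 7 in the wild-type library and 5 of 9 in the knockout-labelled library were Ndnf-poor. Counting these in, the shares were 27.7% (15.6% to 42.6%) and 7.58% (2.51% to 16.8%). The part of depth and doublets in this contrast was not tested.

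The 8 Ndnf-poor wild-type cells that were not mixed differed from the 29 others in more than Ndnf; the genes named were chosen after their values were seen. Rgs4, a regulator of G-protein signalling, had no UMI in the 8 cells and 386 in the others. Gdf5 had 0 and 122 UMIs and Penk 0 and 51, where a count of 0 over these cells allows up to 32.5 CPM, so that against a floor of 3 UMIs Rgs4 was at least 17.7-fold lower and Gdf5 at least 5.6-fold lower; the exact upper limits of their log2 ratios were -3.84 and -2.16. Cxcl12 had 141 CPM against 770 CPM and Calb2 271 against 788 CPM. In the other direction, Eomes had 22 UMIs in 3 of the 8 cells and 3 UMIs in the others, 238 against 4.47 CPM, with 16 of the 22 in 1 cell. Sox11, a factor of newborn neurons, had 1365 CPM against 352 CPM, and Igfbpl1, also a gene of newborn neurons, 1072 against 148 CPM. That same cell held 74 of the 126 Sox11 UMIs and 56 of the 99 Igfbpl1 UMIs, and it had no UMI of Trp73, Ndnf, Lhx1 or Cacna2d2. Zbtb20 had 1852 against 758 CPM and Zic4 347 against 96.9 CPM, with UMIs in 8 and 6 of the 8 cells. Lhx1 was 455 against 173 CPM, though 23 of its 42 UMIs lay in 1 cell, and Cacna2d2 was 899 against 857 CPM.

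A second division was in nuclear RNA. Malat1, a long noncoding RNA kept in the nucleus, was under 1000 CPM in 1 of 40 wild-type members (2.5%, 0.063% to 13.2%) and in 8 of 57 knockout-labelled members (14.0%, 6.26% to 25.8%). Such cells made up 2.95% and 1.34% of other called cells. The 8 cells lay between 284 and 777 CPM and the other knockout-labelled members between 1855 and 174958 CPM. Their summed Meg3 and Snhg11, further nuclear RNAs, were at 2 and 0 UMIs, against 3585 and 2145 UMIs in the other 49. Of 2 more noncoding RNAs, Kcnq1ot1 had 0 against 317 UMIs. Rian was still present in the 8 cells, with 24 UMIs or 260 CPM, against 461 CPM. Of genes the rule did not read, Lhx1 was at 141 against 307 CPM, Pcdh11x at 65.1 against 239 CPM, Cacna2d2 at 673 against 913 CPM, Lhx5 at 185 against 221 CPM and Calb2 at 554 against 628 CPM, and the actin gene Actb was at 3440 against 4870 CPM. Gsdme was at 141.1 against 140.7 CPM. Of the genes the rule read, Reln was at 4634 against 4781 CPM and Ndnf at 1661 against 1803 CPM. Trp73 and Nhlh2 went the other way, at 402 against 292 CPM and 1639 against 905 CPM. The median mitochondrial share of the 8 cells was 5.62% against 2.58%. None of the 9 Malat1-poor members in either library was mixed or marked as a doublet.

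**Figure D3:**
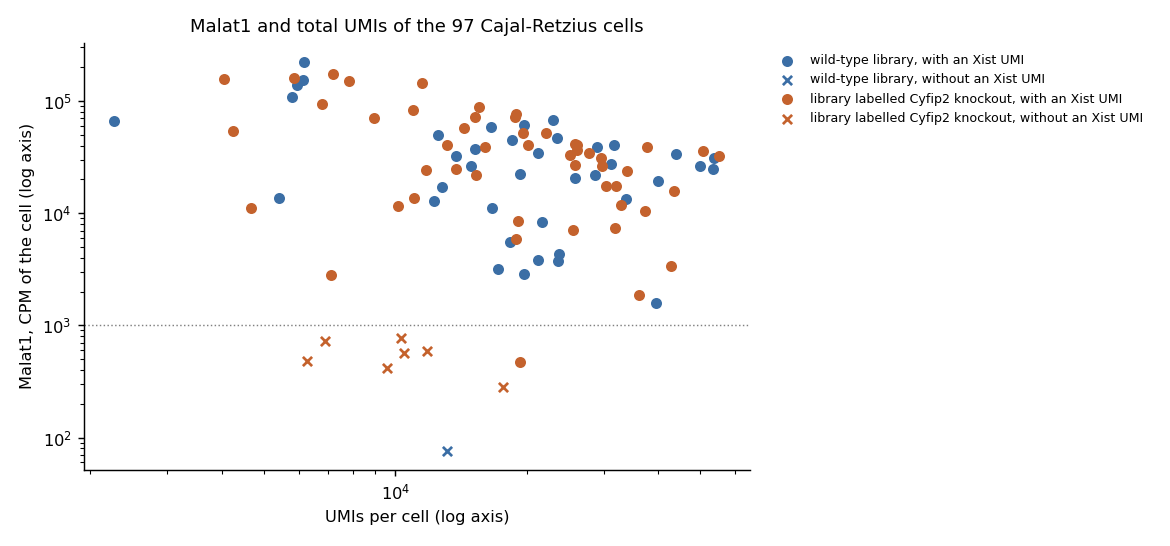
Malat1 in CPM of each cell against the cell's total UMIs, both on log axes, for the 97 members; crosses are cells without a UMI of Xist, another nuclear RNA, and the dotted line is 1000 CPM. The 8 knockout-labelled cells and the 1 wild-type cell below the line include 8 without an Xist UMI, and every member above the line has one.

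The targeted gene was the first check between libraries. Cyfip2 had 102 UMIs in 35 of 40 wild-type members (115 CPM, 93.4 to 139) and 173 UMIs in 44 of 57 knockout-labelled members (150 CPM, 129 to 175). The log2 ratio, knockout-labelled over wild-type, was 0.39 (0.03 to 0.76) over all members and 0.31 (-0.06 to 0.69) without the mixed ones, so Cyfip2 tags were not lower in the library labelled as its knockout. In excitatory-type cells (at least 4 UMIs of Neurod2 and Neurod6 together) the ratio was -0.12, and in GABAergic-type cells (at least 4 Dlx UMIs) it was 0.16. The labels do not say which part of the gene was deleted, and tags outside a deleted part would not show it, so the genotype rests on the label.

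The other WAVE complex genes are shown as a set. Of 11 listed genes 8 were measured, and 0 were past the size rule in all members; that rule asks for a ratio of at least 1.5-fold and an interval on the same side of 0, unadjusted for the number of genes. Over all 6501 measured genes it called 163 higher (2.51%) and 214 lower (3.29%), and the list's median log2 ratio was -0.12 against -0.01 over all genes. Without the mixed members 2 were past it, Cyfip1 and Wasf3, where 140 (2.38%) of 5886 genes were higher and 201 (3.41%) were lower. Cyfip1, the paralogue that can take the place of Cyfip2 in the complex, was at 38.2 CPM in wild-type and 28.7 CPM in knockout-labelled members, a log2 ratio of -0.41 (-1.15 to 0.32) that was -0.97 (-1.84 to -0.13) without the mixed ones. It was not higher in the knockout-labelled library in either set. Wasf3, one of the WAVE proteins, was at 58.4 and 40 CPM, with log2 ratios of -0.55 and -0.64. Nckap1, the partner of the Cyfip subunit, was at 124 and 123 CPM, and Brk1, the smallest subunit, at 206 and 191 CPM. Of 36 measured actin regulators none was past the size rule over all members, and Srgap1 (0.93) and Srgap2 (-1.0), which bend membranes, were past it without the mixed ones.

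**Figure D4:**
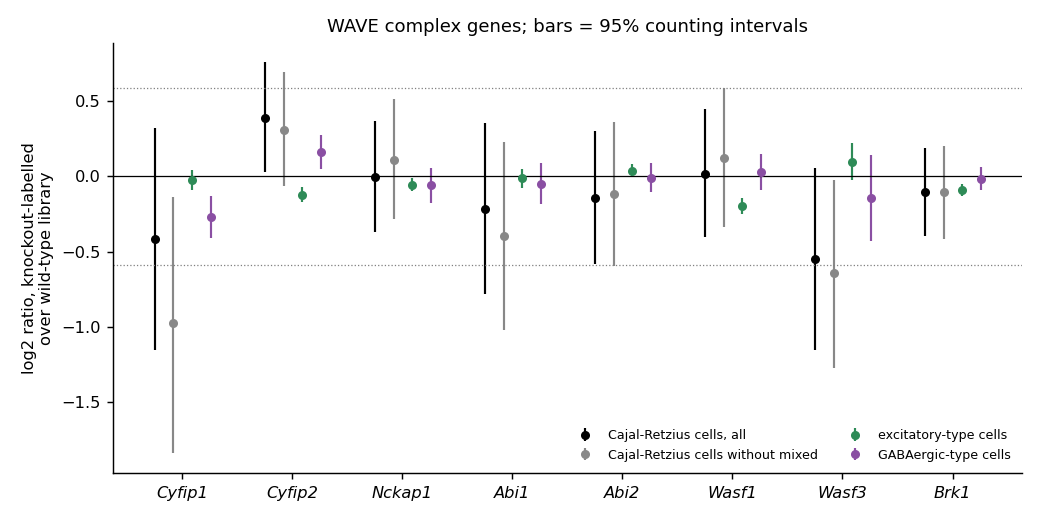
Log2 ratios of CPM, knockout-labelled over wild-type library, for 8 WAVE complex genes in all members, members without the mixed ones, excitatory-type cells and GABAergic-type cells; bars are 95% counting intervals and dotted lines mark 1.5-fold. The intervals of members are the widest, since they rest on 40 and 57 cells, and the Cyfip2 ratio of members lies above 0.

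Over all members the ranking of library differences was led by single mixed cells. The 12 genes highest in the knockout-labelled library (Dab2, Selenop, C1qb, C1qa, Tyrobp, Fcer1g, Mrc1, Pf4, C1qc, Atf3, F13a1 and Apoe) are mostly macrophage genes, and 1 cell held 154 of 154 Mrc1 UMIs and 272 of 276 Pf4 UMIs. At the other end, 1 wild-type cell with progenitor genes held 513 of the 640 Fabp7 UMIs, and 10 of the 12 lowest genes (all but Lgals7 and Rspo3) were not past the size rule once mixed members were left out. For Mt3, a metallothionein, the direction turned, from -2.69 over all members to 0.53 without the mixed ones. Of the calls over all members, 93 higher and 119 lower genes were also called without the mixed ones.

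Without the mixed members, the genes furthest higher in the knockout-labelled library were Dsp, Pcdh11x, Fxyd7, Clgn, Ndst4, Rps6kl1, Mgat4c, Gsdme, Rims1, Samd3, Ncam2 and Chchd10. Pcdh11x, a protocadherin adhesion molecule, had 50 UMIs in 23 of 37 wild-type cells and 247 UMIs in 36 of 51 knockout-labelled cells, with at most 8 and 36 in a cell, and its log2 ratio was 1.94 (1.5 to 2.41). Gsdme, a pore-forming gasdermin of lytic cell death, had 44 UMIs in 19 cells and 148 UMIs in 39 cells, a log2 ratio of 1.39 (0.89 to 1.91). Dsp (desmoplakin), a junction protein, had 7 UMIs in 2 cells and 65 UMIs in 16 cells. Ndst4, a heparan sulfate enzyme, had 21 UMIs in 7 cells and 76 UMIs in 24, and Rims1, an active-zone scaffold, 15 UMIs in 13 cells and 48 UMIs in 26. For each of these genes cells with few or no UMIs occurred in both libraries, so the libraries overlapped cell by cell. In excitatory-type cells the log2 ratio of Pcdh11x was 0.55 and that of Gsdme -0.11; the difference from members was not tested.

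Detection at equal depth was compared after thinning each member to 3000 UMIs, which left out 1 wild-type member. Pcdh11x then had a UMI in 15.4% (5.86% to 30.5%) of wild-type and 43.9% (30.7% to 57.6%) of knockout-labelled members, against 60% and 66.7% before thinning and 2.76% and 4.74% of thinned GABAergic-type cells. Gsdme had one in 12.8% (4.3% to 27.4%) and 43.9% of members, against 50% and 77.2% before thinning; in GABAergic-type cells, at median depths of 8470 and 7535 UMIs, the thinned shares were 13.8% and 13.4%, and in excitatory-type cells 15.9% and 16.3%, so the wild-type share was no higher than in those cells. Lhx1 was found in 35.9% (21.2% to 52.8%) and 63.2% (49.3% to 75.6%) of members, against 87.5% and 91.2% before thinning and 0.071% and 0.094% of thinned GABAergic-type cells.

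The genes furthest lower were Lgals7, Cck, Rspo3, Igfbpl1, Ttc39b, Grin3a, Fibcd1, Limch1, Gfra1, Rbfox3, Trim26 and Rnft2. Rspo3 had 127 UMIs in 20 wild-type cells and 49 UMIs in 16 knockout-labelled cells, a log2 ratio of -1.74 (-2.24 to -1.25). Fibcd1, a leading gene that encodes a chitin-binding membrane protein, had 112 UMIs in 26 cells and 54 UMIs in 22, a ratio of -1.42 (-1.91 to -0.94). Grin3a, a subunit of NMDA receptors, had 57 and 27 UMIs, a ratio of -1.44. For Lgals7, 1 wild-type cell held 31 of 47 UMIs, and for Cck, the cholecystokinin precursor, 1 held 40 of 69. In thinned members Rspo3 was found in 38.5% (23.4% to 55.4%) and 10.5% (3.96% to 21.5%), against 57.5% and 33.3% before thinning and 0.565% and 0.516% of thinned GABAergic-type cells. In thinned excitatory-type cells the Rspo3 shares were 16.3% and 15.5%, above that of knockout-labelled members. Igfbpl1 was -1.73 (-2.13 to -1.34) without the mixed members but -0.48 and not past the rule over all of them.

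**Figure D5:**
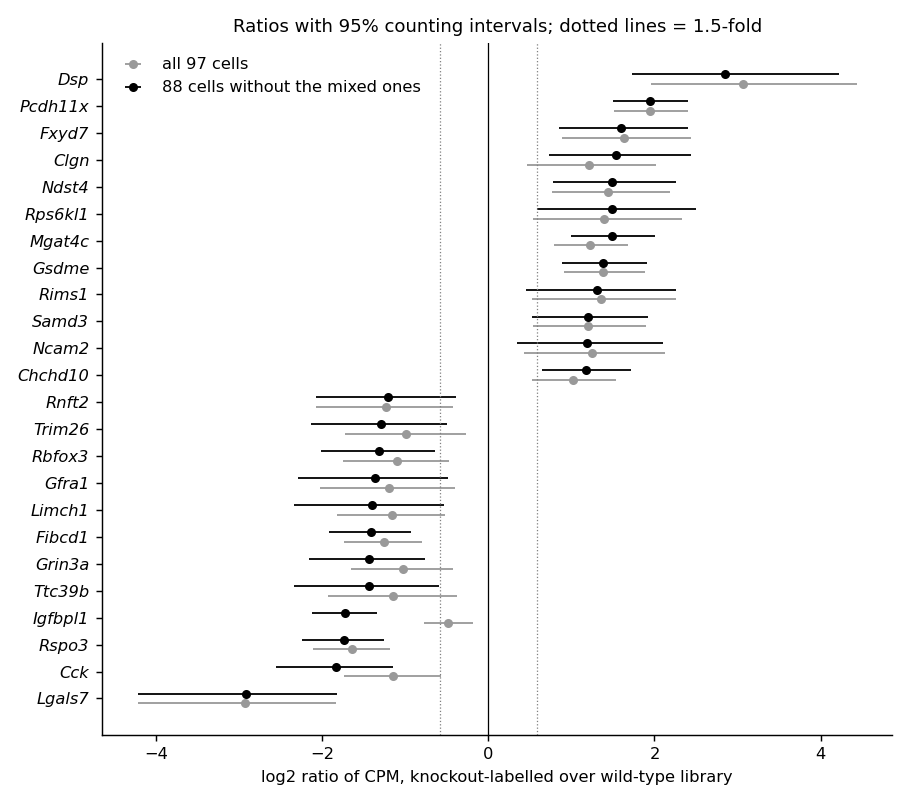
Log2 ratios of CPM, knockout-labelled over wild-type library, for the 12 genes furthest in each direction without the mixed members, over the 88 remaining cells (black) and all 97 cells (grey); bars are 95% counting intervals and dotted lines mark 1.5-fold. All 24 genes keep their direction in both sets; Igfbpl1 moves most, from -1.73 to -0.48, and Cck moves from -1.83 to -1.14.

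The Ndnf-poor cells move with some of these differences. Without the mixed and the Ndnf-poor members, 143 genes were higher and 170 lower, and Igfbpl1 stood at -0.91, Rspo3 at -1.44 and Zbtb20 at -0.72 instead of -0.96. Pcdh11x then stood at 1.84 and Gsdme at 1.27. Over all members, mixed ones included, Rspo3 stood at -1.64 and Zbtb20 at -0.90. Without the Malat1-poor members of that full set, 166 genes were higher and 228 lower. Rspo3 then stood at -1.73, Zbtb20 at -0.89, Pcdh11x at 2.04 and Gsdme at 1.36. When the members without the mixed ones were divided within each library at the median of Zbtb20, the genes lower in the knockout-labelled library had a median log2 ratio, Zbtb20-low over Zbtb20-high cells, of -0.58 in the wild-type and -0.61 in the knockout-labelled cells, against -0.02 and 0.005 over all measured genes. The genes higher in that library had medians of 0.35 and 0.43. Zbtb20-high cells also had more Malat1 (44509 against 16034 CPM in the wild-type library) and fewer UMIs (median 15209 against 22590.5 in the wild-type library). Divided at the median of Malat1 instead, the lower genes had medians, Malat1-low over Malat1-high cells, of -0.27 and -0.36 and the higher genes 0.22 and 0.09, against 0.03 and -0.03 over all measured genes. In each division the gene sets had been called in these same cells, and Zbtb20 was itself lower in the knockout-labelled library. The medians are thus a description and no independent support, and a link of the library differences with Zbtb20 or Malat1 was not tested. When the deepest 10% were left out of the full set of members, 169 genes were higher and 191 lower. Rspo3 stood at -1.69, Zbtb20 at -0.98, Pcdh11x at 1.95 and Gsdme at 1.86.

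Gene lists were then read against the background shares given above. In the Reelin pathway 11 of 14 genes were measured, Reln alone was leading, and Socs7, which promotes turnover of Dab1, was the 1 gene past the size rule over all members (-0.90, and -0.72 and not past it without the mixed ones). The receptor gene Lrp8 was at 80.9 and 101 CPM, below the 189 and 182 CPM of other cells. Vldlr had 24 and 25 UMIs, and Dab1 22 and 15 UMIs, or 24.7 and 13 CPM against 217 and 184 CPM in other cells.

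Of 35 regional factors 22 were measured and 13 were leading. Over all members Lhx9 (0.65) was past the size rule above 0, and Lhx2 (-0.75), Zic2 (-0.60), Zic5 (-0.65) and Rspo3 (-1.64) below it. Without the mixed members Lhx1 (0.64, 0.36 to 0.92) joined Lhx9 above and Meis2 (-0.68) joined Lhx2 and Rspo3 below (it was at 0.53 over all members), while Zic2 and Zic5 were at -0.53 and -0.54 and no longer past it. Lhx1 stood at 0.55 over all members and Lhx5 at -0.09.

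The remaining neuronal lists had few calls. Of 17 measured genes of tangential spread, the guidance receptor Epha4 (-1.55, with 43 and 19 UMIs) was the 1 past the size rule over all members, and Plxna4 (-0.86) and Nrp2 (-0.84) were past it without the mixed members, where Epha4, with 23 and 6 UMIs, fell under the minimum of 50. Among 11 measured transmitter genes Slc17a6 (-0.59), Grin3a (-1.03) and Gria1 (-0.61) were past it over all members, with Grin3a (-1.44) and Gria1 (-0.68) still so without the mixed ones. Among 15 measured channel genes Cacna2d3 (-0.73, 123 and 96 UMIs) was past it in both sets. Of 29 measured synapse and adhesion genes, Rims1 (1.36) was past it over all members, joined by the teneurin Tenm1 (0.77) and, below 0, the latrophilin Adgrl2 (-0.99) without the mixed ones. Syn2, a synaptic vesicle protein whose gene was leading, was at 0.56 with 227 and 335 CPM, just under the 1.5-fold bound. Of 12 measured peptide and granule genes, Scg2, a granin of dense-core vesicles, was higher (0.69, 80 and 129 CPM) and Cck lower.

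Genes of cell death were listed since these cells are known to die after birth. Gsdme, higher at 1.38 over all members, was not on that list. Of 17 measured death and survival genes only Cdkn1a, the p53-responsive cell-cycle inhibitor p21, was past the size rule over all members, at 109 and 59.1 CPM (-0.88), and Bbc3 (Puma), a p53 target of the apoptotic pathway, was past it as well without the mixed ones (-0.63). Diablo, a mitochondrial activator of caspases, was leading, at 305 and 329 CPM, 6.9-fold and 7.5-fold above other cells. Bax, a pore-forming effector of apoptosis, was at 280 and 244 CPM, against 218 and 222 CPM in other cells. Of 17 measured heat shock and endoplasmic reticulum stress genes, Herpud1 was higher (1.0, 0.43 to 1.60; 40.4 and 80.8 CPM), while Hspa5, the main chaperone of that compartment, was at 0.44 and Atf4 at -0.44. Of 10 measured FMRP and translation genes and 11 mitochondrially encoded genes none was past the size rule in either set. Among 8 measured immediate early genes, Atf3 was past it only through 1 mixed cell that held all 98 of its knockout-labelled UMIs, and Ier5 was lower (-0.59, and -0.66 without the mixed ones).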

How the data were processed

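The series holds 2 droplet libraries of dissociated embryonic forebrain. The authors' deposited matrices hold counts, as UMIs per gene and barcode per the file headers, which the matrices' headers credit to Cell Ranger 4, with mm10 as the build in the submitters' processing notes. No source used here gives the annotation or the authors' cell filter. Barcodes with at least 1000 UMIs, 500 genes and at most 10% mitochondrial UMIs were called as cells, and the members were picked from them by raw UMIs.

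UMIs were summed over members of each library and expressed as CPM, and ratios carry exact Poisson intervals at 95%. A gene was measured with at least 50 UMIs in members of both libraries together. Because there is 1 library per group, no edgeR or other count model was fitted and no p-value is given. Shares of cells used exact binomial intervals; for shares with a UMI, cells were thinned to 3000 UMIs. Doublets were scored with Scrublet (scanpy 1.11.5) and kept in the main values. The interval code was tested on simulated Poisson counts, so spread between cells beyond counting error was not part of that test.

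Members and gene lists were chosen with earlier results of these data known. Named genes are those of the lists, the 25 leading genes and the 12 furthest library ratios in each direction, leaving out unnamed gene models, haemoglobin, mitochondrial, Y-linked genes and Xist. Some of these genes are not reported here. Mixed, Ndnf-poor and Malat1-poor members were defined after the data were seen. The ranking without the mixed members applies the same rule to that set and was likewise added afterwards. Members per library number 40 and 57, with 890086 and 1150768 UMIs in all; free RNA was estimated at 1.54% and 1.18% of these.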

Additional observations from a re-analysis of the deposited data

Results flagged for a closer look

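For 7 genes the library ratio of Cajal-Retzius cells and that of excitatory-type cells had opposite signs; with 1 library per group the difference was not tested. The members' log2 ratios were -4.08 for Fabp7, -3.13 for Ddah1 and -2.69 for Mt3, and these 3 rest on mixed wild-type cells: without the mixed members they were 1.12, 1.22 and 0.53, where Fabp7 had 5 and 14 UMIs and Ddah1 3 and 9. The others were Gsdme (1.38), Ncam2 (1.24), Ttc39b (-1.14) and Slc17a6 (-0.59), which were 1.39, 1.19, -1.44 and -0.55 without the mixed members and -0.11, -0.15, 0.31 and 0.14 in excitatory-type cells. Gsdme had 48 and 162 UMIs, Slc17a6 202 and 174, Ncam2 17 and 52, and Ttc39b 41 and 24.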

How the results depend on the processing

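No paired analysis was possible because each group has 1 library and the labels carry no replicate numbers; for the same reason no library could be left out. The counts of higher and lower genes, 163 and 214 in all members, were 259 and 335 with a minimum of 20 UMIs, 359 and 449 with no minimum, 78 and 94 with a minimum of 100, and 46 and 49 at 2-fold. Lower genes numbered 140 when the top cell of each gene in each library was left out, and leading genes 158 at 8-fold. Of 41 named genes past the size rule with UMIs in both libraries, 13 had at least the minimum of UMIs in all 26 settings, and 7 of these were past the rule in each. Without the mixed members 13 of the 41, Fabp7 and Ddah1 among them, were under the minimum, 24 were past the rule, 3 (Vim, Socs7 and Slc17a6) kept their direction but were not past it, and 1 reversed: Mt3, at 0.58 without the highest doublet scores, 0.53 without the mixed members, 0.62 without the mixed and Malat1-poor members and 0.64 without the mixed and Ndnf-poor members. Settings without the mixed, Ndnf-poor or Malat1-poor members and without top cells were chosen after seeing the data. Depth limits what can be said of low genes: the interval of Rims1, with 16 and 53 UMIs, ran from 0.53 to 2.26. The 97 cells limit any comparison of subsets.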
